A study of Mus musculus with 4 samples.

Results

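The RNA of 10 genes of Toll-like receptor signalling was described in myeloid cells of MC38 tumors: the surface receptors Tlr1, Tlr2 and Tlr4, the endosomal receptors Tlr7, Tlr8, Tlr9 and Tlr13, the accessory proteins Ly96 and Cd14, and the adaptor Myd88. The genes were taken by symbol from the deposited matrices, which hold all 10 among 32285 genes. On GRCm38.p6, the assembly behind mm10, each is annotated as protein coding and overlaps no other gene of the RefSeq table. Tlr2 (ENSMUSG00000027995) lies on chromosome 3 from 83836272 to 83841824, Tlr1 (ENSMUSG00000044827) on chromosome 5 from 64924680 to 64933600 and Tlr4 (ENSMUSG00000039005) on chromosome 4 from 66827551 to 66846581. Ly96 (ENSMUSG00000025779) lies on chromosome 1 from 16688456 to 16709605 and Cd14 (ENSMUSG00000051439) on chromosome 18 from 36725064 to 36726815. Tlr9 (ENSMUSG00000045322) lies on chromosome 9 from 106222598 to 106226876, and Myd88 (ENSMUSG00000032508) on the same chromosome from 119335934 to 119340018. The other endosomal receptors are X-linked: Tlr13 (ENSMUSG00000033777) from 106143275 to 106160493, Tlr8 (ENSMUSG00000040522) from 167241123 to 167264329 and Tlr7 (ENSMUSG00000044583) from 167303380 to 167330574.

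Toll-like receptors are membrane proteins that bind molecules of microbes and of damaged cells and start inflammatory signalling in innate immune cells. At the cell surface, TLR2 pairs with TLR1 or TLR6 to bind lipoproteins, and TLR4 binds lipopolysaccharide through its partner MD-2, the product of Ly96, to which CD14 hands the ligand. In endosomes, TLR7 binds single-stranded RNA, TLR9 binds CpG DNA and TLR13, which mice have and humans lack, binds bacterial ribosomal RNA. MyD88 is the adaptor through which all of these receptors activate IRAK kinases and NF-kappaB.

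The study concerned VISTA, an inhibitory receptor encoded by Vsir, in myeloid-derived suppressor cells, immature myeloid cells that accumulate in tumors. WT and VISTA KO bone marrow, strain C57/BL6, was used to make chimeric mice, which received the transplanted colon carcinoma MC38 after 6 weeks and whose tumors were taken at 9 to 10 mm. Tumors were pooled, the congenic markers CD45.1 and CD45.2 told donor cells of both genotypes apart, and the sort for living CD11b+ cells fed 10x Genomics 3 prime single-cell sequencing with antibody tags for CD11c, Ly6G and Ly6C. Each genotype gave 1 gene expression library and 1 tag library of the same cells. The sources used here do not give the age and sex of the mice, the deleted part of Vsir or how many mice were pooled.

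After filtering, 10193 WT cells with a median of 4692 unique molecular identifiers (UMIs, counts of single RNA molecules) and 15140 VISTA KO cells with a median of 4212.5 were kept, and 47 barcode sequences occurred in both libraries. Vsir itself stood at 136.5 UMIs per 1000000 in WT against 46.2 in VISTA KO. Malat1, a nuclear RNA, stood at 10150 and 13410. Cells were clustered without the 10 genes and without the other pathway genes described below, and clusters were named from markers of 17 cell types. The neutrophil-like class held 398 WT and 79 VISTA KO cells. A further cluster of 1874 and 771 droplets, with median depths of 9783 and 10524 UMIs, carried neutrophil and macrophage markers together and is called mixed. Clusters 1, 4 and 5, left unnamed, held 817 of the WT and 6004 of the VISTA KO cells, so values over all kept cells weigh different cells in each library. With 1 library per genotype no test was possible and no replicate spread is known. Every interval is a 95% interval for counting error only.

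Promoter windows of 6 of the 10 genes were found in the RefSeq table (GRCm38.p6), each running from 250 bases before to 50 after an annotated start. The windows of Tlr2, Myd88, Tlr8 and Tlr13 are shown 5′ to 3′ on the gene's strand, because the RNA of these genes was spread over the cell classes in different ways. Capitals mark matches, on either strand, to letters bound by factors of myeloid or inflammatory gene control: NF-kappaB (GGGANTTCC), interferon regulatory factors (GAAANNGAA), PU.1 (GAGGAA), C/EBP (TTGCNNAA), AP-1 (TGANTCA) and STAT proteins (TTCNNNGAA).
Tlr2, chr3:83841559-83841858, minus strand: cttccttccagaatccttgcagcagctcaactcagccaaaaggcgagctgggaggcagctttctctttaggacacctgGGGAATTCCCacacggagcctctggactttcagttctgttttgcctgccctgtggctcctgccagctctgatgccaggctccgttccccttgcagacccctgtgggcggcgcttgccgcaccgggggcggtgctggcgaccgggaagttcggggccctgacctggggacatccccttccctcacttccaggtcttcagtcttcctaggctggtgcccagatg
Myd88, chr9:119339969-119340268, minus strand: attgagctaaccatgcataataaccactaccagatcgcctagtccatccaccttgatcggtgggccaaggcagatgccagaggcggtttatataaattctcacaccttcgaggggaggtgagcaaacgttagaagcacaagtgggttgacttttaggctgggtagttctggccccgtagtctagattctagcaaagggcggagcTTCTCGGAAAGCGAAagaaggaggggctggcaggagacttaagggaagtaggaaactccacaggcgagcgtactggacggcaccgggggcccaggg
Tlr8, chrX:167264280-167264579, minus strand: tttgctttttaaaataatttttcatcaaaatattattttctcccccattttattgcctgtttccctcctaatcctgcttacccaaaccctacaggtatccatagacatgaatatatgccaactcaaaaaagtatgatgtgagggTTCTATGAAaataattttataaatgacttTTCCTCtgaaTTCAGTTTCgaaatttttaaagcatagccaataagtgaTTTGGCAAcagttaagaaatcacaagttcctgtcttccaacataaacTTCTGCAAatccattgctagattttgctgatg
Tlr13, chrX:106143025-106143324, plus strand: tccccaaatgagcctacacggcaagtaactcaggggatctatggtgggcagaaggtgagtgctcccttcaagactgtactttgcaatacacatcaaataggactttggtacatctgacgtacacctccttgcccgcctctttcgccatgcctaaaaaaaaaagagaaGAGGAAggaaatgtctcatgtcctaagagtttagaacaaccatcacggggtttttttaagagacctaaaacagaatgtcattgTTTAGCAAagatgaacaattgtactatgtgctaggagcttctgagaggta

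The NF-kappaB letters began 172 and 171 bases before the Tlr2 start of this window, on opposite strands and overlapping, and occurred in 1.68% of all 32851 windows. This start lies inside the Tlr2 gene, which runs to 83841824 on the minus strand, so these letters lie within the annotated gene. The interferon regulatory factor letters began 40 bases before the Myd88 start and 67 before the Tlr8 start and occurred in 8.56% of windows. In Myd88 they overlap STAT letters that begin 46 bases before the start. STAT letters also began 106 bases before the Tlr8 start, were present in a window of Tlr1 and occurred in 8.30% of windows. The PU.1 letters began 83 bases before the Tlr13 start and 77 before the Tlr8 start. They were also present in windows of Tlr1 and Tlr9, and occurred in 28.3% of all windows. C/EBP letters were present in the Tlr8 and Tlr13 windows and in 10.8% of all windows, and AP-1 letters in the Tlr9 window and in 7.81% of all windows. Another spelling of the NF-kappaB letters (GGAANTTCC) matched no window of the 6 genes and 0.928% of all windows. These matches describe letters and were not tested as binding sites.

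Of the receptor complex for lipopolysaccharide, the RNA of Cd14 and Tlr4 was most abundant in WT neutrophil-like cells. Levels are given as UMIs per 1000000 UMIs of the summed class (CPM). In WT, Cd14 stood at 1676 CPM (1570 to 1787) in neutrophil-like cells, 612.4 in mixed droplets, 363.0 in macrophage-like cells and 315.9 in monocyte-like cells, and at 86.6 in cDC2-like cells, the conventional type 2 dendritic cells. Tlr4 followed a like order, with 125.7 CPM (98.0 to 158.8) in neutrophil-like cells, 42.7 in mixed droplets, 34.4 in macrophage-like cells, 19.0 in monocyte-like cells and finally 7.35 in cDC2-like cells. In each of these orders the neutrophil-like interval lay above all others, and for Tlr4 no interval of these 5 classes overlapped with that of the next class named. Ly96 spread less, at 68.3 CPM (48.3 to 93.7) in neutrophil-like, 55.3 in macrophage-like and 41.1 in monocyte-like cells, and it too was low in cDC2-like cells, at 10.4. Its neutrophil-like and macrophage-like intervals overlapped.

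Tlr2 RNA was most abundant in neutrophil-like and then in monocyte-like cells, at 244.2 CPM (204.9 to 288.9) and 150.6 (144.1 to 157.3) in WT. Mixed droplets held 137.7 CPM, macrophage-like cells 83.0, cDC2-like cells 47.2 and mature DC-like cells, dendritic cells with the migration receptor Ccr7, 29.9. Its partner Tlr1 was not spread in this way. Tlr1 had 1 UMI in the 398 WT neutrophil-like cells, which is 1.80 CPM (0.0455 to 10.0), against 16.7 CPM in macrophage-like and 13 in monocyte-like cells.

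The endosomal receptors did not share 1 pattern either. Tlr7 stood at 29.0 CPM in WT macrophage-like cells, 25.4 in monocyte-like cells and 24.4 in mixed droplets, 3 values whose intervals overlap. In WT neutrophil-like cells it had 3 UMIs, or 5.39 CPM (1.11 to 15.8), and in cDC2-like cells 5.03. Tlr8, whose human form binds RNA breakdown products, was like Tlr7 in this respect, with 19.3 CPM in monocyte-like and 18.2 in macrophage-like cells and 4 UMIs, or 7.18 CPM, in neutrophil-like cells. Tlr13 was different: it was highest in WT neutrophil-like cells, at 97.0 CPM (72.9 to 126.5), and stood at 59.0 in mixed droplets, 53.0 in macrophage-like, 35.5 in monocyte-like and 11.6 in cDC2-like cells. Tlr9 was sparse, between 3.44 CPM in macrophage-like and 4.58 in monocyte-like cells of WT, with overlapping intervals.

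Among the classes of the plot of levels, Myd88 was highest in monocyte-like and then in cDC2-like cells, and lower in mature DC-like cells. It stood at 126.4 CPM (120.5 to 132.5) in WT monocyte-like and 109.4 (97.0 to 122.9) in cDC2-like cells, against 68.8 in macrophage-like and 56.9 in mature DC-like cells. The intervals of the monocyte-like and cDC2-like levels overlapped in WT and did not in VISTA KO, where the levels were 144.3 and 108.8. In cDC2-like cells Myd88 was found in 42.4% of WT and 41.8% of VISTA KO cells, while Tlr4 was found in 4.06% and 4.47%.

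**Figure D1:**
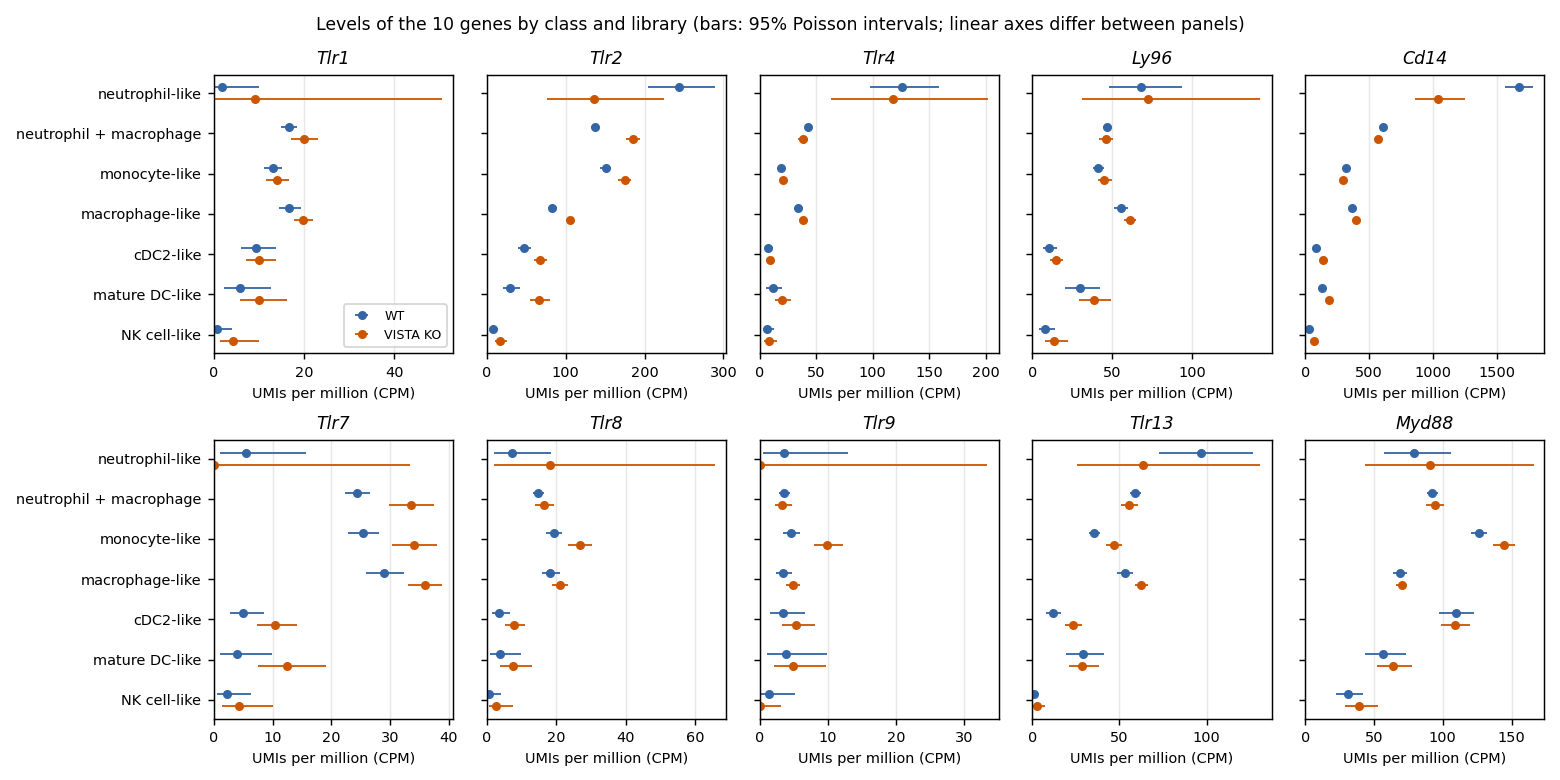
Level of each gene, in CPM on a linear axis that differs between panels, in 7 cell classes of the WT (blue) and VISTA KO (orange) library, with bars for 95% Poisson intervals. Cd14, Tlr4 and Tlr13 are highest in WT neutrophil-like cells, where Tlr1, Tlr7 and Tlr8 have 1, 3 and 4 UMIs, and Myd88 is highest in monocyte-like cells of both libraries.

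NK cell-like cells served as the background from free RNA. They held 1 to 11 UMIs of each receptor and of Ly96 in WT, 43 UMIs of Myd88 and 41 of Cd14. With each cell thinned to 1000 UMIs, which leaves out shallower cells, 2.85% of WT NK cell-like cells (17 left out, 4.72% unthinned, median 2202.5 UMIs) held a Cd14 UMI, against 21.0% of monocyte-like cells (31 left out, 46.3% unthinned, median 4372.5) and 25.1% of macrophage-like cells (26 left out, 61.1% unthinned, median 5358). The same thinned shares were 0.407%, 13.6% and 8.77% for Tlr2, and 0.204%, 3.55% and 5.54% for Tlr13. For Tlr9 they were 0.204% (0.00516 to 1.13) in NK cell-like and 0.125% (0.0151 to 0.449) in macrophage-like cells, so Tlr9 in macrophage-like cells was not above background in WT. In WT monocyte-like cells the thinned Tlr9 share was 0.477% (0.261 to 0.800), within the NK cell-like interval. VISTA KO NK cell-like cells carried more myeloid RNA: Cd14 stood at 68.5 CPM against 29.5 in WT, and the 14 macrophage markers summed to 1684 CPM against 481.3. T cell-like cells, 143 in WT and 15 in VISTA KO, were a higher background in WT, with macrophage markers at 2319 CPM. Their WT levels were 87.3 CPM for Cd14, 15.4 for Tlr4, 12.8 for Tlr13, 10.3 for Tlr7 and 20.55 for Tlr1 (16 UMIs). The WT T cell-like interval of Tlr1, 11.75 to 33.4, overlapped those of WT macrophage-like and monocyte-like cells. Tlr1 in these 2 classes was thus above the NK cell-like but not above the T cell-like background. Of the 10 genes, Myd88 alone had a WT cDC2-like interval above that of WT T cell-like cells.

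The 2 libraries were then compared to ask what loss of VISTA goes with. A gene with at least 20 UMIs was called when its log2 ratio of VISTA KO over WT CPM was 0.32 or more in size (0.3219 before rounding), in either direction, and its interval left out 0. Over all kept cells 5 of the 10 genes were higher in VISTA KO and 0 lower, where 14.6% of all genes were higher and 7.73% lower. Tlr2 stood at 125.8 CPM in WT against 164.1 in VISTA KO (log2 ratio 0.38, 0.34 to 0.42), Tlr1 at 14.8 and 19.2 (0.37), Tlr7 at 24.1 and 31.5 (0.39), Tlr8 at 15.4 and 21.0 (0.44) and Tlr9 at 3.81 and 5.66 (0.57). Cd14 (433.0 and 436.3 CPM), Myd88 (95.2 and 94.1), Tlr4 (30.9 and 30.3) and Tlr13 (46.0 and 47.7) had log2 ratios between -0.03 and 0.05. At a log2 size of 0.58 or more, 0 members were higher, where 5.37% of all genes were. Without clusters 1, 4 and 5 the count was 2 rather than 5, Tlr7 (0.39) and Tlr9 (0.51), where 13.3% of all genes were higher and 5.72% lower, and Tlr2 was then at 0.21 and Tlr1 at 0.19. As counted, 5 members had a higher share of all kept cells with a UMI in VISTA KO, with intervals that did not overlap, and 2, Myd88 and Tlr4, a lower one, where 7.73% of all genes had a higher and 30% a lower share. Thinned to 1000 UMIs, 0 members had a lower share. Without neutrophil-like and mixed droplets Cd14 was at 0.37 in place of 0.01.

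In monocyte-like cells the endosomal receptors were the members that were higher. All 4 of them passed the rule and no other member did, where 14.2% of all genes were higher and 7.11% lower. A stricter cell filter asked for at least 1000 UMIs and at most 5% mitochondrial UMIs. Under it Tlr1 and Tlr2 passed too, where 16.1% of all genes were higher. With the 10 genes and the pathway genes allowed in the clustering Tlr2 passed beside the 4, where 15.7% were higher. Tlr7 stood at 25.4 CPM in WT against 34.1 in VISTA KO (log2 ratio 0.43, 0.20 to 0.65), from 344 and 318 UMIs. Tlr8 stood at 19.3 and 26.7 CPM (0.47, 0.21 to 0.73), and Tlr13 at 35.5 and 46.6 (0.39, 0.20 to 0.58). Tlr9 stood at 4.58 and 9.97 CPM (1.12, 0.64 to 1.61), which rests on 62 and 93 UMIs. The thinned share of VISTA KO monocyte-like cells with a Tlr9 UMI was 1.06% (0.687 to 1.56), and that of VISTA KO NK cell-like cells was 0 of 388. Taken as 3 divided by the 388 cells, this allows up to 0.773%, which overlaps the monocyte-like interval. That limit is on the upper side only and is narrower than the Clopper-Pearson intervals given for other shares. The surface members moved less: Tlr2 stood at 150.6 and 174.8 CPM (0.21), Tlr4 at 19.0 and 20.4 (0.10), Ly96 at 41.1 and 45.1 (0.14), Tlr1 at 13 and 13.9 (0.10) and Cd14 at 315.9 and 293.8 (-0.10, -0.17 to -0.04).

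The monocyte-like class consists of cluster 0, led by Vcan, Plac8 and Chil3, and cluster 7, led by Stxbp6, Pi16 and Ifitm6. In cluster 0 the log2 ratios were 0.38 for Tlr7, 0.53 for Tlr8, 1.07 for Tlr9 and 0.45 for Tlr13. In cluster 7 they were 0.46, 0.35, 1.70 from 5 and 14 UMIs, and 0.27. Without cluster 0 the count was 1 rather than 4, as Tlr7 alone passed the rule in cluster 7, where 11.6% of all genes were higher and 8.44% lower. Joined with macrophage-like and unnamed clusters, Tlr7 (0.28) and Tlr13 (0.19) no longer passed, while Tlr1 and Tlr2 did. There 18.0% of all genes were higher. At a log2 size of 0.58 or more the count was 1, Tlr9, where 5.86% of all genes were higher. As counted, Tlr9 had a higher and Cd14 a lower share of monocyte-like cells in VISTA KO, where 3.04% of all genes had a higher and 24.5% a lower share. Thinned to 1000 UMIs, the intervals of both overlapped between the libraries. Macrophage marker RNA moved with these values: the 14 markers summed to 1955 CPM in WT against 3697 in VISTA KO monocyte-like cells, and Malat1 to 7343 and 10750. Their part in the result was not tested. Tlr7, Tlr8 and Tlr13 are X-linked. In monocyte-like cells 306 X-linked genes had a median log2 ratio of 0.07, against 0.08 over all genes. Of these X-linked genes 13.4% were higher in VISTA KO, against 14.2% of all genes. A median over the chromosome does not show the behaviour of single genes, and the part of X linkage in the result was not tested.

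In macrophage-like cells 1 member was higher, where 9.53% of all genes were higher and 5.12% lower. Tlr2 stood at 83.0 CPM in WT against 105.6 in VISTA KO (log2 ratio 0.35, 0.23 to 0.47). Tlr7 stood at 29.0 and 35.9 (0.31, 0.11 to 0.51), Tlr13 at 53.0 and 62.5 (0.24), Cd14 at 363.0 and 399.1 (0.14) and Myd88 at 68.8 and 70.3 (0.03), all short of the rule. The Tlr2 ratio was 0.20, 0.26, 0.26 and 0.56 in the 4 clusters of the class. The Tlr2 call was lost in 5 of 13 alternatives that recompute the ratio. With each library clustered alone the ratio was 0.14 (0.03 to 0.25), and Tlr7 passed in place of Tlr2, where 12.3% of all genes were higher. With clusters weighted equally Tlr7 likewise passed and Tlr2 (0.32) did not. The call was also lost without cluster 17, which is held mostly by WT and was led by Retnla and Lpl, as the ratio was then 0.30, and with scaling by the median gene (0.31). Without cluster 3 Tlr7 (0.52) and Tlr13 (0.35) passed while Tlr2, at 0.32, fell below the unrounded limit, and without cluster 6 Cd14 passed beside Tlr2, at 0.39. At a log2 size of 0.58 or more 0 members were higher, where 4.01% of all genes were. Joined with monocyte-like and unnamed clusters, 4 members were higher (Tlr1, Tlr2, Tlr8 and Tlr9), where 18.0% of all genes were higher and 5.64% lower. As counted, 0 members had shares of macrophage-like cells that differed beyond their intervals, where 3.19% of all genes had a higher and 12.1% a lower share in VISTA KO.

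In mixed droplets Tlr2 (137.7 and 185.1 CPM, log2 ratio 0.43, 0.34 to 0.51) and Tlr7 (24.4 and 33.6, 0.46, 0.25 to 0.67) were higher, where 12.4% of all genes were higher and 4.27% lower. At a log2 size of 0.58 or more 0 members were, where 5.32% of all genes were. Cd14 (612.4 and 572.8 CPM) and Tlr4 (42.7 and 38.1) had log2 ratios of -0.10 and -0.16. The share of RNA from each cell type in these droplets differed between the libraries, with neutrophil markers at 12270 and 9029 CPM and macrophage markers at 12740 and 14440. Its part in the result was not tested.

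In dendritic cells Cd14, Tlr2 and Tlr7 were higher in VISTA KO in both classes, with macrophage markers higher beside them. In cDC2-like cells 5 of 10 passed, where 10.4% of all genes were higher and 4.86% lower: Cd14 (86.6 and 136.1 CPM, log2 ratio 0.65, 0.42 to 0.89), Tlr2 (47.2 and 67.7, 0.51), Tlr13 (11.6 and 23.1, 0.96), Tlr7 (5.03 and 10.4, 0.97, 0.11 to 2.07, from 13 and 39 UMIs) and Tlr8 (3.48 and 7.70, 1.04, 0.03 to 2.41, from 9 and 29 UMIs). The Tlr8 call held in 3 of 7 alternatives that recompute the ratio. With at least 100 UMIs asked of a gene 3 passed, where 13.4% of all genes were higher. Myd88 stood at 109.4 and 108.8 (-0.01). In mature DC-like cells Tlr2 (29.9 and 66.4 CPM, 1.12), Cd14 (135.0 and 183.0, 0.43) and Tlr7 (3.86 and 12.4, 1.43, 0.11 to 3.69, from 4 and 20 UMIs) were higher, where 9.70% of all genes were higher and 3.12% lower. The WT levels of Tlr7 in both classes lay within the interval of WT NK cell-like cells (0.445 to 6.31 CPM), so in WT they were not above background. The same held for Tlr8 in WT cDC2-like cells, as its WT NK cell-like interval was 0.0182 to 4.01 CPM. Tlr13 in WT cDC2-like cells was not above the WT T cell-like level of 12.8 CPM. In both classes the 14 macrophage markers, each found in both libraries, moved the same way, from 1036 to 1783 CPM in cDC2-like and from 2456 to 4791 in mature DC-like cells. Macrophage RNA in dendritic cell droplets and a change within dendritic cells cannot be told apart here.

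Neutrophil-like cells were the class in which called members were lower in VISTA KO, where 6.50% of all genes were lower and 8.65% higher. Cd14 stood at 1676 CPM in WT against 1043 in VISTA KO (log2 ratio -0.67, -0.98 to -0.40), from 933 and 115 UMIs, and Tlr2 at 244.2 and 136.0 (-0.76, -1.72 to -0.07), from 136 and 15 UMIs. Tlr4 stood at 125.7 and 117.9 CPM and Ly96 at 68.3 and 72.5. The VISTA KO values rest on 79 cells, below the 100 asked of other classes, and Tlr7 and Tlr9 had 0 UMIs there, where 3 UMIs would be 27.2 CPM. The macrophage markers stood at 1889 CPM in WT against 3155 in VISTA KO, and the neutrophil markers at 93220 and 117100. Their part in the result was not tested.

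In NK cell-like cells Cd14 was the only member called, higher at a log2 ratio of 1.20 (0.66 to 1.80), where 9.52% of all genes were higher and 2.15% lower. In droplets with NK cell and macrophage markers together Tlr2 was the only member called, at 97.8 CPM in WT against 147.7 in VISTA KO (0.59, 0.27 to 0.93), where 5.45% of all genes were higher and 3.75% lower.

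**Figure D2:**
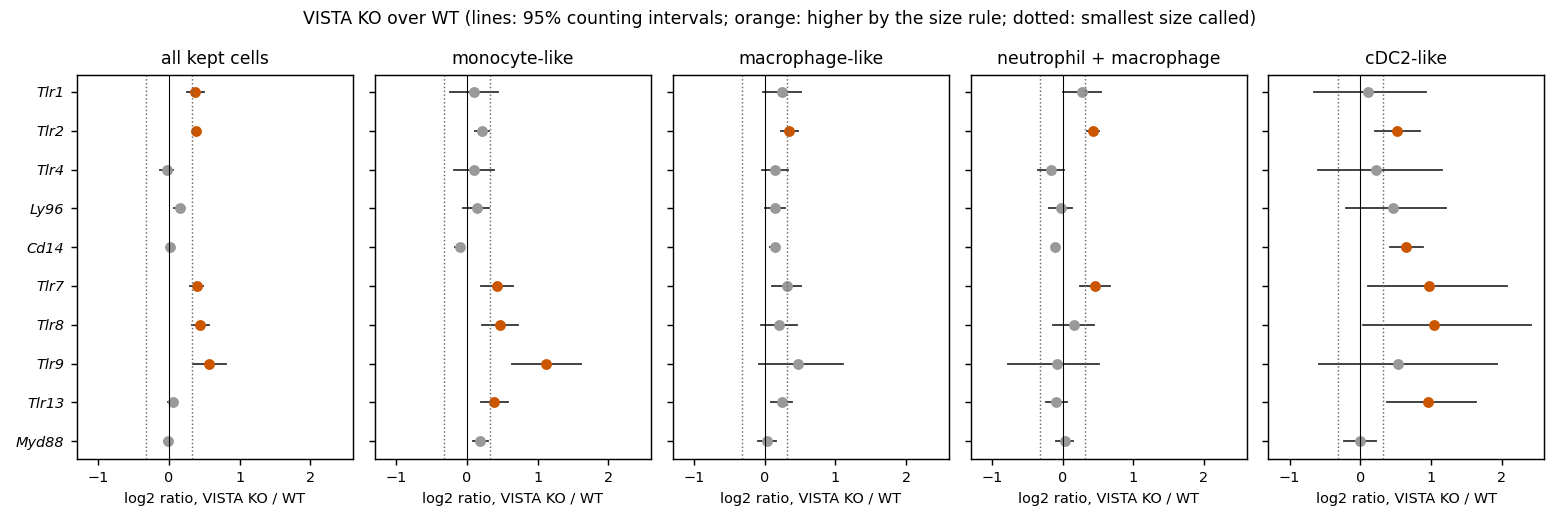
Log2 ratio of VISTA KO over WT for each gene over all kept cells and in 4 classes, with lines for 95% counting intervals, orange points for genes higher by the size rule and dotted lines at its smallest size, 0.32. In monocyte-like cells Tlr7, Tlr8, Tlr9 and Tlr13 are orange, and in macrophage-like cells Tlr2.

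Cells of a class differed among themselves more than the libraries did for Cd14. Within the monocyte-like class, cluster 7 held 574.2 CPM of Cd14 in WT against 537.8 in VISTA KO, and cluster 0 held 207.8 and 173.8. Cluster 7 also held more Myd88, at 155.3 and 166.7 CPM against 114.3 and 133.3, and cluster 0 more Tlr1, at 15.2 and 16.5 against 7.75 and 8.77. Within macrophage-like cells, Cd14 ran from 185.4 CPM in WT cluster 12, which carries the tissue macrophage genes Fcrls and Folr2, to 534.8 in cluster 6, led by Mmp12 and the haem oxygenase gene Hmox1. The same clusters were lowest and highest in VISTA KO, at 215.2 and 571.7.

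Among unnamed clusters, Tlr7 was highest in cluster 16, at 60.5 CPM (32 UMIs) in WT against 125.8 (34 UMIs) in VISTA KO. The leading genes of cluster 16 include Ace, Treml4 and Cd300e, and it held 160 WT and 72 VISTA KO cells, the latter fewer than 100. Its log2 ratio for Tlr7 was 1.05 (0.32 to 1.80). Cluster 10, led by the immediate early gene Egr2 and the chemokine genes Ccl7 and Ccl2, had Cd14 at 616.2 CPM in WT against 827.6 in VISTA KO (log2 ratio 0.42, 0.32 to 0.53) and Tlr2 at 217.3 and 293.3 (0.43, 0.26 to 0.61). Cluster 5, whose leading genes are mitochondrial and nuclear RNAs and whose median was 902 and 868 UMIs, had Cd14 at 427.0 and 743.6 CPM. The median log2 ratio of the members was 0.24 in cluster 1 and 0.15 in cluster 4, against 0.04 and 0.03 over all genes. It was -0.03 in cluster 9, against -0.01. In clusters 10 and 5 it was 0.29 and 0.46, against 0.08 and -0.07. The share of all genes called was not counted in these clusters.

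**Figure D3:**
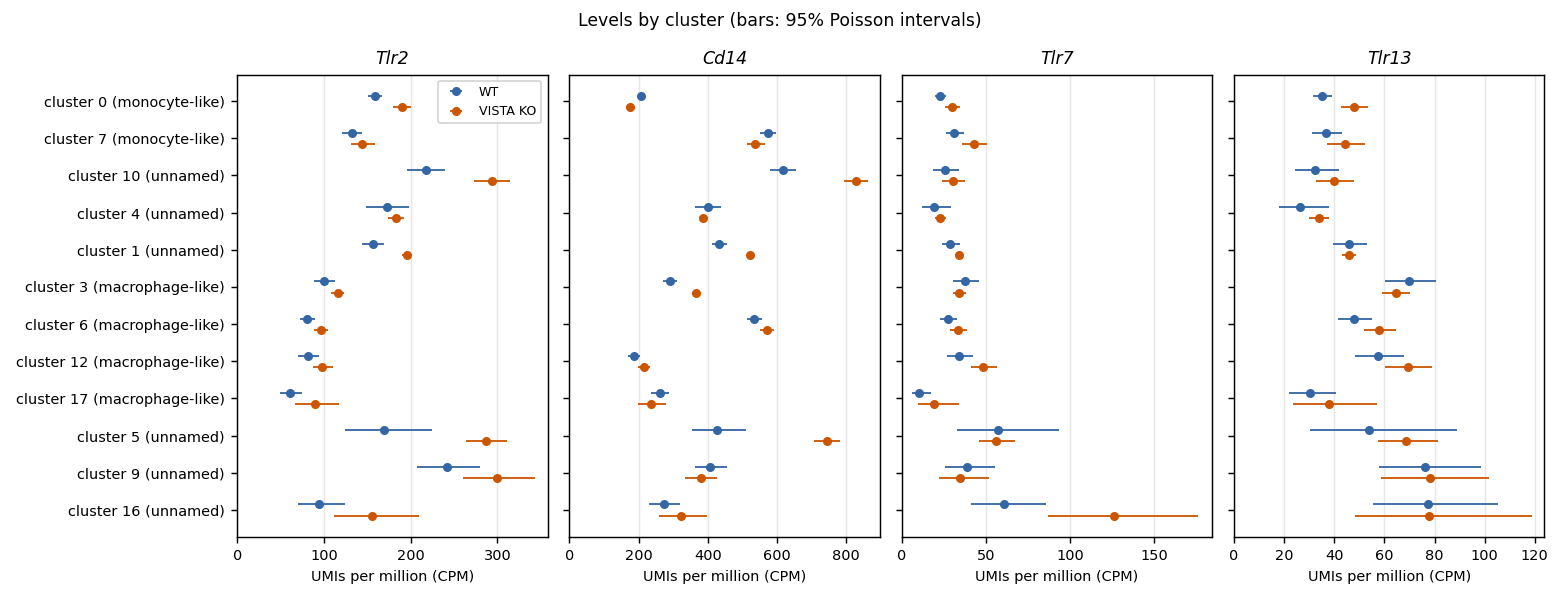
Level of Tlr2, Cd14, Tlr7 and Tlr13, in CPM on linear axes, in clusters of monocyte-like, macrophage-like and unnamed cells of the WT (blue) and VISTA KO (orange) library, with bars for 95% Poisson intervals. Cd14 separates cluster 7 (574.2 and 537.8) from cluster 0 (207.8 and 173.8) in both libraries, and Tlr7 is highest in cluster 16.

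Surface protein gave a readout that had chosen neither genes nor classes, though Ly6c2 RNA was among the monocyte markers. Cells of each class and library were cut into 3 groups of equal size by their Ly6C tags per gene UMI. Tlr2 was higher with more Ly6C in both classes and both libraries, from 132.3 CPM in the low group to 178.1 in the high group of WT monocyte-like cells and from 149.1 to 219.3 in VISTA KO. In macrophage-like cells it went from 63.1 to 107.8 and from 79.8 to 143.8. Tlr1 went the same way, from 10.1 to 19.3 and from 8.54 to 21.8 CPM in monocyte-like cells of WT and VISTA KO. Cd14 went from 371.2 down to 259.6 CPM in WT and from 352.7 down to 217.1 in VISTA KO monocyte-like cells, while in macrophage-like cells it went from 283.4 to 408.4 and from 333.5 to 503.8. These directions in monocyte-like cells were not particular to Ly6C. By CD11c tags Tlr2 went from 140.5 to 161.4 CPM in WT and from 160.9 to 202.1 in VISTA KO monocyte-like cells. The low and high intervals overlapped in WT (130.2 to 151.4 and 149.1 to 174.4) and not in VISTA KO. Cd14 went from 351.6 down to 258.9 and from 367.0 down to 226.3. In macrophage-like cells by CD11c, Cd14 went from 384.9 down to 318.2 in WT and from 367.5 up to 418.4 in VISTA KO. Tlr7 in monocyte-like cells differed between the libraries in the low Ly6C group, at 22.3 CPM in WT against 36.55 in VISTA KO. In the high Ly6C group it stood at 34.9 and 33.7, with overlapping intervals. Tlr9 and Tlr13 intervals likewise overlapped in the high and not in the low group. Tlr8 went the other way, with overlap in the low group (20.15 and 25.35) and none in the high group (18.8 and 30.7). Cells with more Ly6C tags per gene UMI held less RNA, with median gene UMIs of 4920.5 in the low and 3644 in the high group of WT monocyte-like cells. The part of depth in these differences was not tested.

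**Figure D4:**
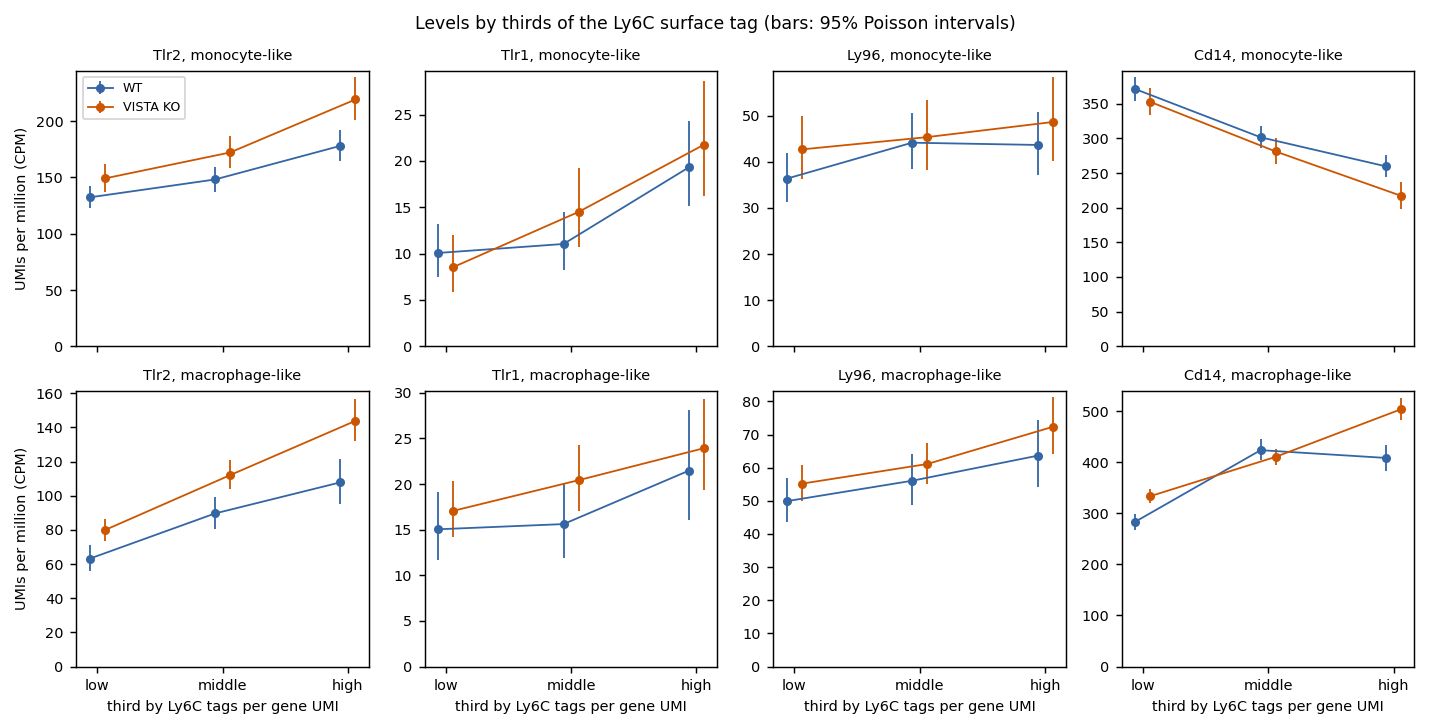
Level of Tlr2, Tlr1, Ly96 and Cd14, in CPM on linear axes from 0, in groups of low, middle and high Ly6C tags per gene UMI, for monocyte-like (top) and macrophage-like (bottom) cells of WT (blue) and VISTA KO (orange), with bars for 95% Poisson intervals. Tlr2 is higher in the high than in the low group in both classes and libraries, and Cd14 is lower in the high group of monocyte-like and higher in that of macrophage-like cells.

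Receptor partners, and other pairs too, were found in the same macrophage-like cell more often than the product of their shares gives. In WT macrophage-like cells 6.31% held UMIs of both Tlr4 and Ly96, against 5.53% from the product of the shares, and 4.53% held Tlr4, Ly96 and Cd14, against 3.38%. In VISTA KO these values were 6.19% against 5.48% and 4.84% against 3.46%. Tlr1 and Tlr2 were found together in 4.35% of WT macrophage-like cells, against 3.25% from the product. Endosomal receptors that are not partners did so too, Tlr8 and Tlr13 in 4.10% against 3.16% and Tlr7 and Tlr13 in 5.02% against 4.46%. In monocyte-like cells Tlr4 and Ly96 were together in 1.69% of WT cells, against 1.37% from the product. In VISTA KO the values were 1.03% against 1.11%. Deeper cells hold more of every gene, which raises all such shares. Any endosomal receptor was found in 30.1% of WT and 33.9% of VISTA KO monocyte-like cells and in 45.7% and 46.7% of macrophage-like cells, as counted and not thinned.

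The genes most like each member were sought by Pearson correlation of log2(CPM + 1) over 34 sums of cells, 1 for each cluster and library with at least 100 cells, which share libraries, depth and free RNA. Among the members, Tlr7 and Tlr8 were most alike (r = 0.904), then Tlr2 and Cd14 (0.842) and Ly96 and Tlr13 (0.841), and Cd14 and Tlr9 were least alike (0.197). Tlr7 was most like Csf1r (0.913), the receptor for macrophage colony-stimulating factor, and Tlr2 most like Rhbdf2 (0.950), which carries the TNF-releasing protease to the surface. Cd14 was most like Plaur (0.928), the urokinase receptor, Tlr13 most like Lst1 (0.929) and Tlr4 most like Gla (0.917), with the complement receptor C5ar1 (0.892) next. Myd88 was most like Nhsl2 (0.904) and Samhd1 (0.882), a nucleotide hydrolase that restricts viruses. Tlr9 had no close match, with Bcl9 highest at 0.655.

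Of 58 other genes of the pathway, 57 are in the matrices. In monocyte-like cells 54 had at least 20 UMIs, of which 16 (29.6%) were higher and 5 (9.26%) lower in VISTA KO, against 14.2% and 7.11% of all genes, with a median log2 ratio of 0.16 against 0.08 over all genes. Of the other receptors 3 of 8 were higher and 1 lower: Cd180, a receptor homologous to TLR4, went from 23.0 to 37.1 CPM (0.69), Tlr3, which binds double-stranded RNA, from 10.9 to 17.1 (0.66), and Lbp, which carries lipopolysaccharide, from 7.60 to 4.50 (-0.74). Of the genes that move and process endosomal receptors 5 of 14 were higher and 3 lower. Lgmn, an asparagine protease of lysosomes, went from 155.2 to 258.3 CPM (0.74). Rnaset2a went from 107.7 to 40.0 (-1.43) and Rnaset2b from 64.0 to 27.1 (-1.23), lysosomal ribonuclease genes that are near-identical copies, so the split between them is uncertain. Of adaptors 2 of 4 were higher, Pik3ap1, which links receptors to PI3 kinase, at 0.39 and Ticam2, which serves TLR4, at 0.37. Among kinases and ligases 2 of 16 were higher, the IKK-alpha gene Chuk at 0.56 and the TAK1 gene Map3k7 at 0.49, and Tab1 was lower at -0.59. The transcription factor genes Nfkb1 (0.37) and Irf7 (0.34) were higher, as were the negative regulators Peli1 (0.50) and Tnfaip3 (0.39), a ubiquitin-editing enzyme.

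In macrophage-like cells 7 of 55 pathway genes (12.7%) were higher and 6 (10.9%) lower, against 9.53% and 5.12% of all genes, with a median of 0.11 against 0.04 over all genes. Ly86, the partner of CD180, went from 325.7 to 481.9 CPM (0.56), Tlr3 from 16.4 to 23.9 (0.54), the lysosomal protease gene Ctss from 4015 to 5485 (0.45) and Unc93b1, which carries nucleic acid receptors to endosomes, from 287.6 to 369.0 (0.36). Cd36, a scavenger receptor that serves TLR2, went from 109.9 to 66.3 (-0.73), Atf3, a repressor of inflammatory genes, from 706.1 to 455.4 (-0.63), and Rnaset2a from 136.7 to 56.3 (-1.28). Of adaptors 0 of 4 were called in either direction. Irak4, a kinase that binds MyD88, was higher at 0.46 and Traf6, a ubiquitin ligase downstream of it, lower at -0.33. In mixed droplets 6 of 55 (10.9%) were higher and 4 (7.27%) lower, against 12.4% and 4.27% of all genes, among them Ly86 (0.47), Ctss (0.33), Atf3 (-0.41) and Rnaset2b (-1.33).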

How the data were processed

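The authors deposited whole-number UMI counts of 32285 genes and 3 antibody tags per barcode for each library, not normalized. The headers name Cell Ranger 5.0.0 as the software behind the matrices, and the submitters' processing notes list mm10 and Seurat 4.0. The sources used here do not give the settings for calling cells. The count does not tell expression from free RNA, and 3 prime tags count reads near transcript ends only.

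Cells with at least 200 genes, 500 UMIs and at most 10% mitochondrial UMIs were kept (99.5% of WT and 99.2% of VISTA KO barcodes). Both libraries were clustered together: scaling to 10000 UMIs, log, 2000 variable genes per library, 30 principal components, 15 neighbours, Leiden resolution 1 with seed 7 (leidenalg 0.10.2, igraph 0.11.9, scikit-learn 1.9.0). The 10 genes, the other pathway genes, Vsir and the Xist, Tsix, Y-linked, cell cycle, ribosomal protein and mitochondrial genes were left out of it. No doublet caller was run, and droplets with markers of different types stayed as mixed classes. A name needed 3 markers at 1.5-fold and in 20% of cells, and a cluster was mixed where 3 macrophage markers were each in 60% of its cells. The members, gene lists, markers and naming thresholds were chosen with earlier results of these data known. The genes named beyond the 10 are, per group of the pathway list, the 2 highest and 2 lowest ratios from 100 UMIs in a class, of which some are printed, and for each member the 3 genes most like it among genes with at least 1000 UMIs, of which some are printed.

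UMIs were summed per class and library. CPM have exact Poisson intervals, shares Clopper-Pearson intervals and ratios, with a pseudocount of 1 UMI, exact conditional binomial intervals (scipy 1.17.1, Python 3.11.15). The ratio script was tested on simulated data. Alternatives are given in the closing section.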

Additional observations from a re-analysis of the deposited data

Results flagged for a closer look

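In neutrophil-like cells the log2 ratio of VISTA KO over WT was -0.76 for Tlr2 and -0.67 for Cd14, from 79 VISTA KO cells. These values drew attention because each gene was called lower there and higher in at least 1 other class. Tlr2 was above 0 in monocyte-like (0.21), macrophage-like (0.35), mixed (0.43) and cDC2-like (0.51) droplets. Cd14 was called higher in cDC2-like (0.65), mature DC-like (0.43) and NK cell-like cells (1.20) and was at 0.14 in macrophage-like cells, but in monocyte-like cells (-0.10, -0.17 to -0.04) and mixed droplets (-0.10, -0.14 to -0.05) it ran the same way as in neutrophil-like cells. The difference between classes was not tested, as each genotype had 1 library.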

How the results depend on the processing

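No paired analysis was possible because each genotype had 1 library. Each member ratio over all kept cells and in 4 classes was recomputed under the alternatives, giving 450 values, of which 397 stayed within the counting interval of the ratio as reported, 53 moved beyond it and 0 called ratios changed direction. The 17 called ratios gave 141 values, all above 0, and 120 of these still passed the whole rule. These values leave out the larger log2 size of 0.58 and the minimum of 100 UMIs, which change the rule and not the ratio. At that larger size calls were lost over all kept cells and in each of the 4 classes. Among the recomputed values, calls were lost most often for Tlr2 in macrophage-like cells (5 of 13 alternatives, down to 0.14 with each library clustered alone) and Tlr8 in cDC2-like cells (4 of 7). Alternatives that left out or joined clusters were chosen after seeing the data. Over all kept cells the count of members higher went from 5 to 2 with scaling by the median gene ratio, which shifts all log2 ratios by 0.08 and leaves 9.70% of all genes higher and 10.0% lower, to 0 at a log2 size of 0.58 and to 2 without clusters 1, 4 and 5. In monocyte-like cells it went from 4 to 1 at that larger size and to 1 without cluster 0. In macrophage-like cells it went from 1 to 2 with the pathway genes allowed in the clustering and without cluster 3 or 6, to 0 with median scaling, at the larger size and without cluster 17, and to 4 with monocyte-like and unnamed clusters joined to it. It went from 2 to 0 in mixed droplets at the larger size and from 5 to 3 in cDC2-like cells at 100 UMIs. In monocyte-like cells Tlr1 and Tlr2 joined the endosomal receptors under the stricter cell filter. Tlr2 joined them with the pathway genes allowed in the clustering. Pathway genes higher in macrophage-like cells went from 7 to 12 with each library clustered alone, while the share of all genes higher went from 9.53% to 12.3%. Those lower went from 6 to 3 with clusters weighted equally, while the share of all genes lower went from 5.12% to 2.33%. As counted, 2 members had a lower share of all kept cells in VISTA KO, and in monocyte-like cells 1 had a higher and 1 a lower share. Thinned to 1000 UMIs these counts were 0, 0 and 0. The cause of these shifts was not tested. Depth limits Tlr9 and the VISTA KO neutrophil-like class.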
